A study of Mus musculus with 27 samples.

Results

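Angiotensin, endothelin, adrenomedullin, natriuretic peptide clearance and guanylate cyclase genes were followed in fibroblasts during direct conversion to induced cardiomyocyte-like cells. The genes were Agt, Agtr1a, Agtr2, Ace, Edn1, Ednra, Adm, Npr3, Gucy1b1 and Gucy1a1, taken as a list of 10, each represented by its brightest probe set among those carrying its symbol alone. A probe set was found for 9 of the 10, out of 19938 genes on the array with such a probe set. Ednra, a receptor for endothelin, is not analysed here because no probe set carried its symbol alone.

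The 27 cultures, 3 for each of 9 groups, were collected at Day 3, and the total RNA of each was hybridized to an Affymetrix Mouse Gene 1.0 ST array. Mouse embryonic fibroblasts (MEFs) came from embryos of mixed background from which the heart and other viscera had been removed, and cardiac fibroblasts (CFs) came from hearts of mice 8 to 12 weeks old. MEFs carried either no reprogramming factor (0TF) or HNGMT, which is Hand2, Nkx2.5, Gata4, Mef2C and Tbx5 delivered by doxycycline-inducible lentiviruses. Each of these 2 MEF populations received the DMSO vehicle, 0.5 µM SB431542 (SB), an inhibitor of the kinase of the type I TGFβ receptor, or 2 ng/mL TGFβ1. CFs all carried HNGMT and were given DMSO, SB at 5 µM or the same dose of TGFβ1, and there were no 0TF CFs, so HNGMT could not be compared with 0TF in them. According to the methods, the cultures shared an rtTA lentivirus and a calcium reporter under the Troponin T promoter, a nuclear mCherry marker and 2 µg/mL doxycycline from Day 0, with the molecules added at Day -1. The labels describe the 0TF cultures as empty vector in one place and as lacking transcription factors in another. The cultures of a group are described as independent biological replicates, and how many embryos or hearts they came from is not given in the sources used here, so the p-values measure the spread between cultures.

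Angiotensinogen, the product of Agt, is cut by renin and then by angiotensin-converting enzyme (Ace) to angiotensin II, which acts on the type 1a (Agtr1a) and type 2 (Agtr2) receptors. In the heart and in fibroblasts the type 1 receptor is known for hypertrophic and fibrotic responses, and the type 2 receptor is abundant in fetal mesenchyme and scarce in most adult tissue. Endothelin-1 (Edn1) constricts vessels, adrenomedullin (Adm) dilates them, the Npr3 receptor clears natriuretic peptides, and the Gucy1a1 and Gucy1b1 subunits together form the soluble guanylate cyclase that makes cyclic GMP when nitric oxide binds.

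TGFβ receptors signal through Smad proteins, whose short binding element is CAGAC. It was searched on both strands of the 250 bases before an annotated start of each gene. A GATA element (AGATAA) and a T-box element (AGGTGT) were searched beside it. RefSeq windows on GRCm38.p6 were matched for 9 of the 10 listed genes, Agtr1a being the one without a window. The windows of Edn1 and Gucy1b1 are shown because they hold CAGAC and the effect of TGFβ1 on these genes differed between HNGMT and 0TF MEFs. The effect on Agtr2 and Agtr1a differed too, and the Agtr2 window holds no CAGAC. The Edn1 window is chr13:42301226-42301475 on the plus strand, and that of Gucy1b1 is chr3:82074712-82074961 on the minus strand. Capitals mark CAGAC or its reverse complement, and both sequences run 5′ to 3′ and end at the base before the start.
Edn1: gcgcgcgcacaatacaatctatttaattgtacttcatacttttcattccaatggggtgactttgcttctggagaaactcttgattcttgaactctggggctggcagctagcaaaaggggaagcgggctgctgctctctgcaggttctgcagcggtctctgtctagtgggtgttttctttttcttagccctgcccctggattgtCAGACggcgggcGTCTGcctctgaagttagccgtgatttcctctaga
Gucy1b1: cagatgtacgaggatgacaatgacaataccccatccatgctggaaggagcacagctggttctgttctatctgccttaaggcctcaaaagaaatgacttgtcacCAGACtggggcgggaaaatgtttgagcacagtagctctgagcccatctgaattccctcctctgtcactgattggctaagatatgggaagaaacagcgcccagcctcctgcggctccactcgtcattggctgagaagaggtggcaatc
The Edn1 window holds 2 matches to CAGAC, one on each strand, and the Gucy1b1 window holds 1. Of 32851 promoter windows of this length, 42.2% hold at least 1 match to CAGAC, 9.99% hold AGATAA and 11.8% hold AGGTGT. Neither printed window holds AGATAA or AGGTGT. The Ednra window holds 2 matches to CAGAC, the Adm window 1 and each of the 2 Gucy1a1 windows 1, and one Gucy1a1 window also holds 1 match to AGGTGT. The windows of Agt, Agtr2, Ace and Npr3 hold no match to any of the 3 elements. These matches are letters in a window and were not tested as binding sites. Gucy1b1 and Gucy1a1 lie on the same strand of chromosome 3, with 17715 bases between the annotated genes. Both RefSeq windows of Gucy1a1 lie inside the annotated gene and are not printed. The Npr3 window and 1 of the 2 Ace windows also lie inside their annotated genes.

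The values are log2 intensities as deposited. The median of an array was between 7.83 and 7.91 for MEFs but between 7.36 and 7.43 for CFs, and levels were therefore not compared between the cell types. A gene was called when its Benjamini-Hochberg adjusted p over all genes was under 0.05 in limma and its fold reached the threshold of the study's methods, which is 1.5-fold for MEFs and a 25% difference for CFs. Of the 5 delivered factors, Hand2 was called higher with HNGMT in DMSO, with a log2 difference of 2.48, Tbx5 was called lower with -0.94, and Nkx2-5, Gata4 and Mef2c were not called. The methods name a mouse qRT-PCR assay for Hand2 and human assays for the other factors, and whether these mouse probe sets read the delivered copies was not tested. On MEF arrays the mean of 8 fibroblast genes lay between 12.01 and 13.38 and that of 10 endothelial genes between 7.18 and 7.75. On CF arrays these means lay between 10.88 and 11.31 and between 9.37 and 10.95. CF HNGMT+SB replicate 3 stood apart with an endothelial mean of 9.37, where replicates 1 and 2 were at 10.94 and 10.95, and CF results are given with and without it. In whole cultures, fewer cells of a type and less RNA per cell cannot be told apart.

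**Figure D1:**
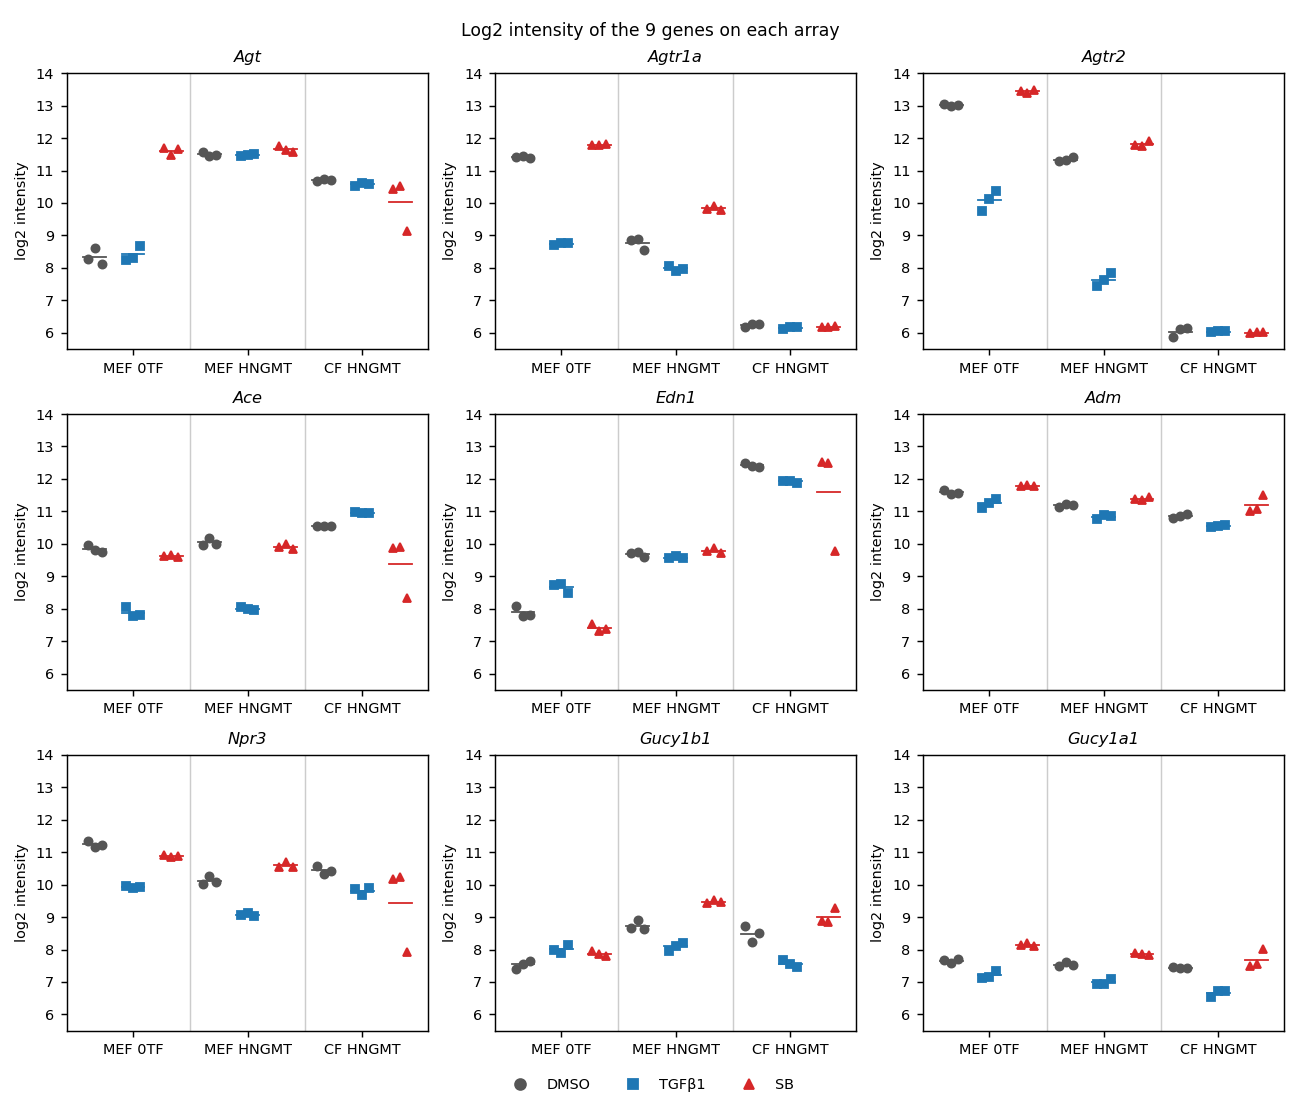
Log2 intensity (vertical axes, all from 5.5 to 14) of the 9 genes on each of the 27 arrays, with 3 arrays per group and a bar at each group mean (grey circles DMSO, blue squares TGFβ1, red triangles SB). Agtr1a, Agtr2 and Ace lie lower with TGFβ1 than with DMSO in both MEF populations, and among MEFs Agt is low in 0TF cultures without SB.

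Each medium was compared with the same DMSO arrays of its population, and over all genes TGFβ1 gave more calls than SB. With SB in 0TF MEFs, 1 of 9 was called (higher), where 2.4% of all genes were called (1.26% higher and 1.13% lower). With TGFβ1 in 0TF MEFs, 5 of 9 were called, 1 higher and 4 lower, where 10.4% of all genes were called (4.21% higher and 6.19% lower). With HNGMT, SB gave 2 of 9 called, both higher, against 0.823% of all genes (0.391% higher and 0.431% lower). TGFβ1 with HNGMT gave 5 of 9, all lower, against 5.77% of all genes (2.23% higher and 3.54% lower). Median log2 differences over the 9 genes were 0.34 and -0.45 with SB and TGFβ1 in 0TF, and 0.33 and -0.64 with HNGMT, where the medians over all genes were -0.01, 0.05, 0.01 and 0.02. Without the fold threshold, the calls at an adjusted p under 0.05 were 9, 8, 6 and 7 of 9 in that order of comparisons, and all genes gave 16.6%, 46.9%, 7.38% and 35.8%.

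**Figure D2:**
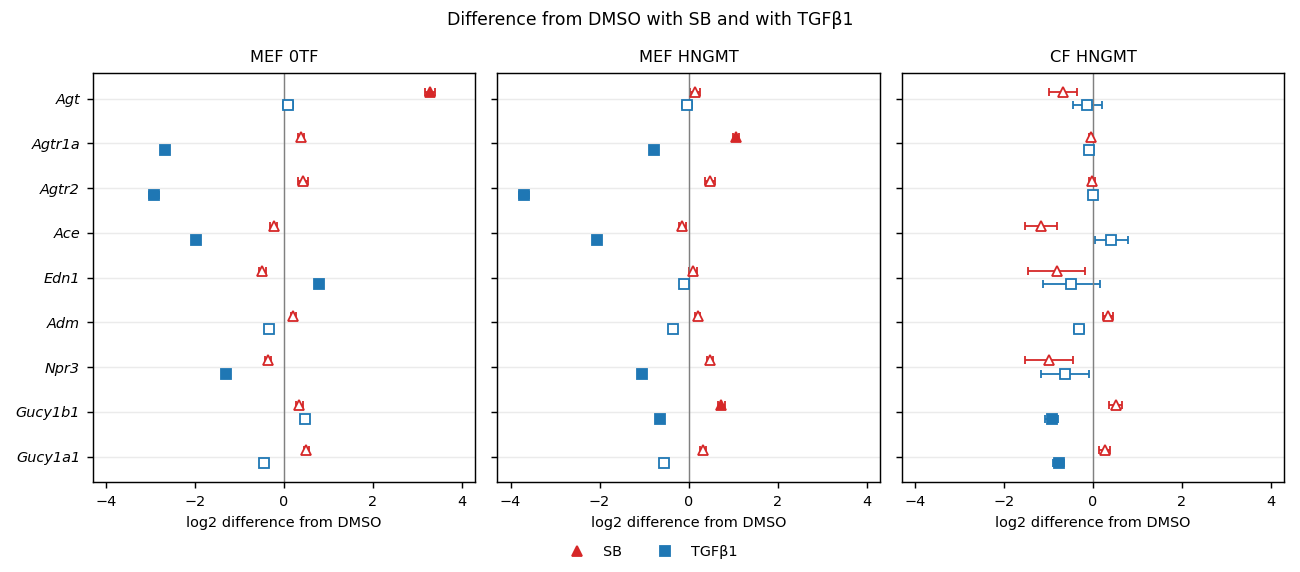
Log2 difference from DMSO (horizontal axes) with SB (red triangles) and TGFβ1 (blue squares) for the 9 genes in the 3 populations, with bars of 1 standard error from limma and filled symbols for called differences. In MEFs the called TGFβ1 differences are negative except for Edn1 in 0TF, and in CFs only the TGFβ1 differences of Gucy1b1 and Gucy1a1 are filled.

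Agt, the precursor of the angiotensins, was high in MEFs with either SB or HNGMT. In 0TF MEFs its 3 arrays read 8.28, 8.62 and 8.11 with DMSO, 8.26, 8.32 and 8.68 with TGFβ1, and 11.68, 11.47 and 11.67 with SB. In HNGMT MEFs they read 11.59, 11.46 and 11.48 with DMSO, 11.45, 11.47 and 11.52 with TGFβ1, and 11.75, 11.64 and 11.56 with SB. The 4 highest groups overlapped each other from one to the next and all stood apart from 0TF+DMSO and 0TF+TGFβ1, which overlapped. SB raised Agt 9.66-fold in 0TF MEFs, a log2 difference of 3.27 (standard error 0.11, adjusted p = 7.87e-13), and HNGMT raised it 9.02-fold in DMSO. With HNGMT, SB gave 0.14 (adjusted p = 0.659), and the SB effect with HNGMT minus that in 0TF was -3.13 on the log2 scale (standard error 0.16, adjusted p = 5.32e-10). TGFβ1 gave 0.08 in 0TF (adjusted p = 0.585) and -0.03 with HNGMT (adjusted p = 0.895).

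Adipocyte genes were high together with Agt in 0TF+SB MEFs. All 7 adipocyte genes, Adipoq, Fabp4, Cidec, Plin1, Lpl, Pparg and Car3, were called higher with SB in 0TF MEFs. Their mean ran from 11.36 to 11.44 with SB there, from 8.37 to 8.40 with DMSO, and from 8.13 to 8.20 in HNGMT+DMSO MEFs, where Agt was also high. The 7 cardiomyocyte genes had a mean of 9.75 to 9.85 in HNGMT+DMSO and of 7.73 to 7.89 in 0TF+SB. The part of these cell types in the level of Agt was not tested.

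Agtr1a, the type 1a angiotensin receptor, fell with TGFβ1 and with HNGMT. In 0TF MEFs it read 11.41, 11.45 and 11.38 with DMSO, 8.71, 8.76 and 8.77 with TGFβ1, and 11.79, 11.78 and 11.81 with SB. In HNGMT MEFs it read 8.86, 8.89 and 8.56 with DMSO, 8.06, 7.91 and 7.98 with TGFβ1, and 9.81, 9.91 and 9.79 with SB. Only HNGMT+DMSO and 0TF+TGFβ1 overlapped among neighbours in the order of the 6 groups, and SB gave the highest arrays within each population. TGFβ1 lowered Agtr1a 6.35-fold in 0TF MEFs (log2 difference -2.67, standard error 0.07, adjusted p = 9.7e-16) and 1.73-fold with HNGMT (log2 difference -0.79, standard error 0.07, adjusted p = 3.03e-08). The TGFβ1 effect was thus weaker with HNGMT, by a log2 difference of 1.88 (adjusted p = 6.79e-11). SB raised it 2.1-fold with HNGMT (log2 difference 1.07, standard error 0.07, adjusted p = 8.77e-09). In 0TF, SB gave 0.38 (adjusted p = 0.000364), under the fold threshold, and the SB effects differed by 0.69 (adjusted p = 6.82e-05).

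Agtr2, the type 2 receptor, was the gene with the widest range over the MEF groups, 5.81 between the highest and lowest group means on the log2 scale. In 0TF MEFs it read 13.05, 12.99 and 13.03 with DMSO, 9.76, 10.13 and 10.37 with TGFβ1, and 13.46, 13.39 and 13.48 with SB. In HNGMT MEFs it read 11.30, 11.31 and 11.41 with DMSO, 7.44, 7.62 and 7.83 with TGFβ1, and 11.80, 11.76 and 11.90 with SB. No neighbours in the order of the 6 groups overlapped, and TGFβ1 gave the lowest arrays in each population. TGFβ1 lowered Agtr2 7.64-fold in 0TF (log2 difference -2.93, standard error 0.11, adjusted p = 3.51e-13) and 13.1-fold with HNGMT (log2 difference -3.71, standard error 0.11, adjusted p = 1.15e-13). The fall was steeper with HNGMT by a log2 difference of -0.77 (standard error 0.16, adjusted p = 0.000928). The HNGMT+TGFβ1 mean, 7.63, was below the 40th percentile of gene means over the MEF arrays, 7.75, and so a dim signal. With SB the differences were 0.42 in 0TF (adjusted p = 0.0129) and 0.48 with HNGMT (adjusted p = 0.0107), both under the fold threshold.

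Ace, the converting enzyme, fell with TGFβ1 in both MEF populations. It read 9.97, 9.82 and 9.76 in 0TF+DMSO and 8.07, 7.77 and 7.81 in 0TF+TGFβ1. In HNGMT MEFs the arrays read 9.96, 10.19 and 10.01 with DMSO and 8.07, 7.98 and 7.96 with TGFβ1. Every TGFβ1 array lay below every other MEF array, and the TGFβ1 groups of the 2 populations overlapped. The falls were 3.91-fold in 0TF (log2 difference -1.97, standard error 0.07, adjusted p = 3.67e-13) and 4.14-fold with HNGMT (log2 difference -2.05, standard error 0.07, adjusted p = 9.43e-13). The difference between these effects was -0.08 (standard error 0.11, adjusted p = 0.644). With SB, Ace had -0.23 in 0TF (adjusted p = 0.0432) and -0.14 with HNGMT (adjusted p = 0.386), neither called.

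Some fibroblast genes were lower with TGFβ1, as Agtr1a, Agtr2 and Ace were, and with HNGMT in DMSO, as the 2 receptors were while Ace was not. Of 8 fibroblast genes, 4 were called lower with TGFβ1 in each MEF population and 4 with HNGMT in DMSO. Their mean ran from 13.30 to 13.34 in 0TF+DMSO, from 12.70 to 12.82 in 0TF+TGFβ1, from 12.77 to 12.80 in HNGMT+DMSO and from 12.01 to 12.12 in HNGMT+TGFβ1. Pericyte and smooth muscle genes had a mean of 9.83 to 9.85 in 0TF+DMSO and of 10.28 to 10.38 in 0TF+TGFβ1, and 4 of the 9 were called higher and 1 lower. Their part in the results of Agtr1a, Agtr2 and Ace was not tested.

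Edn1, which encodes the precursor of endothelin-1, rose with HNGMT in MEFs, and with TGFβ1 it rose in 0TF. It read 8.07, 7.79 and 7.80 in 0TF+DMSO, 8.74, 8.75 and 8.49 in 0TF+TGFβ1, and 7.51, 7.31 and 7.37 in 0TF+SB. In HNGMT MEFs it read 9.71, 9.75 and 9.60 with DMSO, 9.55, 9.63 and 9.55 with TGFβ1, and 9.78, 9.88 and 9.71 with SB. The 3 groups of 0TF MEFs stood apart from one another, with SB lowest and TGFβ1 highest, whereas neighbours among the HNGMT groups overlapped. TGFβ1 raised Edn1 1.71-fold in 0TF (log2 difference 0.77, standard error 0.08, adjusted p = 3.11e-07), and with HNGMT it had -0.11 (adjusted p = 0.334), a difference between the effects of -0.89 (standard error 0.12, adjusted p = 1.08e-05). With SB, Edn1 had -0.49 in 0TF (adjusted p = 0.000266), under the fold threshold, and 0.10 with HNGMT (adjusted p = 0.677). Its mean in 0TF+SB, 7.395, was below the 40th percentile of gene means over the MEF arrays, 7.75, and so a dim signal. The SB effects differed by 0.59 (standard error 0.12, adjusted p = 0.00258), which is 1.504-fold and so just past the fold threshold. Without any 1 of 5 arrays this last difference lay between 0.50 and 0.57, under that threshold. The arrays left out were 0TF+DMSO replicate 1, 0TF+SB replicates 2 and 3, HNGMT+DMSO replicate 3 and HNGMT+SB replicate 2.

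Adm, the vasodilator adrenomedullin, varied least of the 9, with 0.96 between the highest and lowest MEF group means on the log2 scale. In 0TF MEFs it was at 11.58 ± 0.07 (SD, n = 3) with DMSO, 11.25 ± 0.13 with TGFβ1 and 11.80 ± 0.01 with SB, and with HNGMT at 11.18 ± 0.05, 10.83 ± 0.06 and 11.39 ± 0.05 in the same order. The 3 media stood apart from one another in each population, with TGFβ1 lowest and SB highest. The log2 differences were 0.21 with SB in both populations, -0.34 with TGFβ1 in 0TF and -0.35 with HNGMT, none of them called at 1.5-fold.

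Npr3, the natriuretic peptide clearance receptor, fell with TGFβ1 in both MEF populations and with HNGMT. It read 11.33, 11.16 and 11.22 in 0TF+DMSO, 9.97, 9.89 and 9.93 in 0TF+TGFβ1, and 10.91, 10.85 and 10.88 in 0TF+SB. In HNGMT MEFs it read 10.01, 10.26 and 10.08 with DMSO, 9.06, 9.12 and 9.04 with TGFβ1, and 10.55, 10.69 and 10.54 with SB. No groups overlapped, and SB lay below DMSO in 0TF but above it with HNGMT. TGFβ1 gave log2 differences of -1.31 in 0TF (standard error 0.06, adjusted p = 3.49e-12) and -1.04 with HNGMT (standard error 0.06, adjusted p = 1.95e-10). With SB the differences were -0.36 in 0TF (adjusted p = 0.000212) and 0.48 with HNGMT (adjusted p = 3.02e-05), each under the fold threshold. The difference between these opposite SB effects was 0.84 (standard error 0.08, adjusted p = 2.26e-06) and was called.

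Gucy1b1, the β1 subunit of soluble guanylate cyclase, rose with HNGMT in DMSO and SB, and its differences with both media were called in HNGMT MEFs but not in 0TF. The study listed it, under the symbol Gucy1b3, as up-regulated with SB in both MEFs and CFs on these arrays, so its response to SB is not independent evidence. In the limma fit used here it was not called with SB in CFs, with 0.51 (adjusted p = 0.411). Without SB replicate 3 of the CFs it had 0.37 (adjusted p = 0.235). In 0TF MEFs it read 7.40, 7.57 and 7.64 with DMSO, 7.995, 7.90 and 8.14 with TGFβ1, and 7.95, 7.87 and 7.81 with SB. In HNGMT MEFs it read 8.68, 8.90 and 8.64 with DMSO, 7.97, 8.12 and 8.20 with TGFβ1, and 9.43, 9.54 and 9.46 with SB. The 3 HNGMT groups stood apart, with SB highest and TGFβ1 lowest, and HNGMT+TGFβ1 overlapped 0TF+TGFβ1. With HNGMT, SB raised Gucy1b1 1.67-fold (log2 difference 0.74, standard error 0.08, adjusted p = 6.84e-06) and TGFβ1 lowered it 1.56-fold (log2 difference -0.64, standard error 0.08, adjusted p = 4.17e-06). The latter was -0.56 without HNGMT+DMSO replicate 2 and -0.58 without HNGMT+TGFβ1 replicate 1, under the fold threshold in both cases. In 0TF, TGFβ1 had 0.47 (adjusted p = 7.27e-05) and SB 0.34 (adjusted p = 0.00567), both under the fold threshold. The 0TF+DMSO mean, 7.54, was below the 40th percentile of gene means over the MEF arrays, 7.75, and so a dim signal. The TGFβ1 effects differed by -1.12 (standard error 0.11, adjusted p = 5.14e-07). The SB effects differed by 0.40 (adjusted p = 0.034), under the fold threshold. Of the 7 cardiomyocyte genes, 5 were called higher with HNGMT in DMSO, and in HNGMT MEFs 4 were called higher with SB and 3 lower with TGFβ1. Their mean in HNGMT MEFs was 9.75 to 9.85 with DMSO, 10.16 to 10.57 with SB and 9.39 to 9.45 with TGFβ1, and their part in the result of Gucy1b1 was not tested.

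Gucy1a1, the α1 subunit that pairs with Gucy1b1, followed the media in the same order in 0TF and HNGMT MEFs. In 0TF it was at 7.66 ± 0.06 (SD, n = 3) with DMSO, 7.21 ± 0.13 with TGFβ1 and 8.15 ± 0.04 with SB. With HNGMT it was at 7.54 ± 0.06, 6.99 ± 0.09 and 7.86 ± 0.02 in the same order. All 4 medium differences had an adjusted p under 0.05 and none reached 1.5-fold, with 0.50 and 0.32 for SB and -0.45 and -0.54 for TGFβ1 in 0TF and HNGMT. Its mean over the MEF arrays was below the 40th percentile of gene means, 7.75, so these are differences in a dim signal. HNGMT against 0TF gave -0.12 in DMSO for Gucy1a1 (adjusted p = 0.112) where Gucy1b1 had 1.20 (adjusted p = 8.11e-10).

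Most of the genes differed between HNGMT and 0TF MEFs in DMSO. Since the labels differ on an empty vector in 0TF cultures, the part of the viruses themselves was not tested. In DMSO, HNGMT against 0TF gave 6 of 9 called, 3 higher and 3 lower, where 9.08% of all genes were called (4.56% higher and 4.51% lower). Agt, Edn1 and Gucy1b1 rose, by log2 differences of 3.17 (standard error 0.11), 1.80 (standard error 0.08) and 1.20 (standard error 0.08). Agtr1a, Agtr2 and Npr3 fell, with -2.64 (standard error 0.07), -1.68 (standard error 0.11) and -1.12 (standard error 0.06). Ace had 0.20 (adjusted p = 0.0414), Adm -0.40 (adjusted p = 8.59e-06) and Gucy1a1 -0.12, none called. Both angiotensin receptors and the clearance receptor were thus lower with HNGMT in the vehicle, and the precursors of angiotensin and endothelin-1 higher.

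With SB, HNGMT against 0TF gave 4 of 9 called, 2 higher and 2 lower, where 9.85% of all genes were called (5.04% higher and 4.81% lower). Edn1 rose by 2.39 and Gucy1b1 by 1.60 on the log2 scale, and Agtr1a and Agtr2 had -1.96 and -1.62. Agt had 0.04 (adjusted p = 0.823) and Npr3 -0.28 (adjusted p = 0.000681), neither called. With TGFβ1, 5 of 9 were called, 2 higher and 3 lower, where 10.3% of all genes were called (6.37% higher and 3.88% lower). Agt rose by 3.06 and Edn1 by 0.92, while Agtr1a, Agtr2 and Npr3 had -0.77, -2.46 and -0.86, and Gucy1b1 had 0.08 (adjusted p = 0.416).

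**Figure D3:**
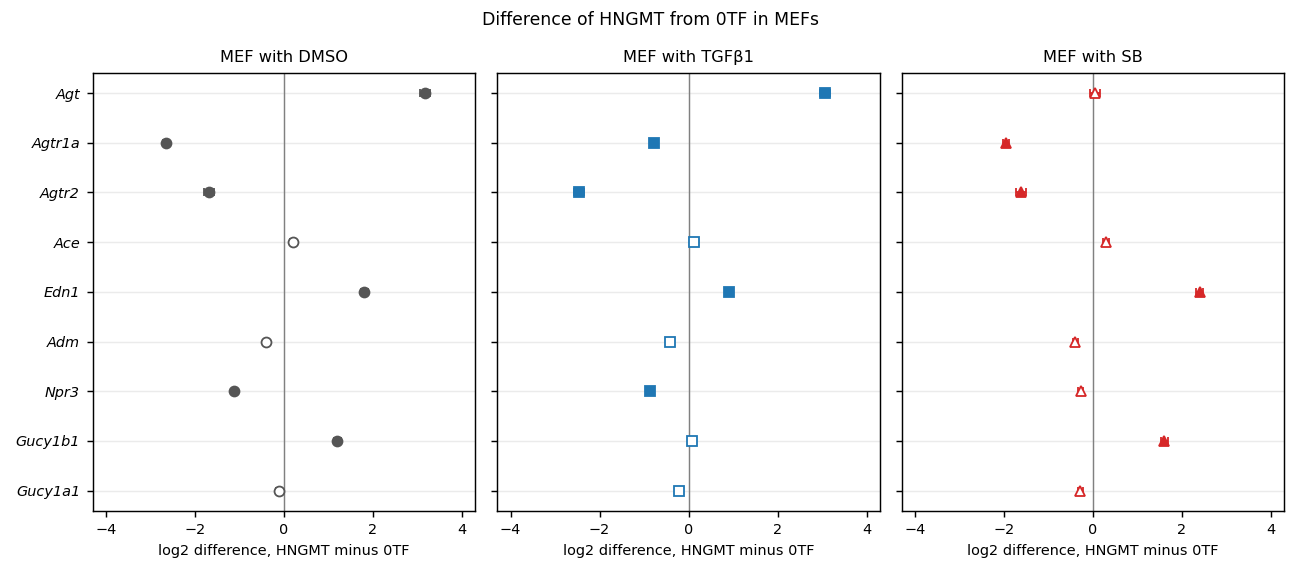
Log2 difference of HNGMT from 0TF MEFs (horizontal axes) for the 9 genes in DMSO, TGFβ1 and SB, with bars of 1 standard error from limma and filled symbols for called differences. Agt lies near 3 in DMSO and TGFβ1 and near 0 with SB, and Edn1 is filled and positive in all 3 media.

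The effect of a medium differed between HNGMT and 0TF MEFs for 4 of 9 genes with SB, 3 higher and 1 lower with HNGMT, where 1.96% of all genes were called in this test (0.893% higher and 1.06% lower). These were Agtr1a, Edn1 and Npr3 higher and Agt lower. With TGFβ1 the effect differed for 4 of 9, Agtr1a higher and Agtr2, Edn1 and Gucy1b1 lower, where 7.45% of all genes were called (4.68% higher and 2.77% lower). Without HNGMT+DMSO replicate 3, the SB count was 2, because Agtr1a and Edn1 had 0.58 and 0.54, under the fold threshold.

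In CFs with HNGMT, SB gave 0 of 9 called in limma, where 0.241% of all genes were called. At an unadjusted p under 0.05, 2 were higher (Gucy1b1 and Adm) and 1 lower (Ace). The share of all genes at this looser cut-off was not counted, so these counts have no background. Agtr1a was at 6.12 to 6.28 and Agtr2 at 5.87 to 6.14 on all 9 CF arrays, below the 40th percentile of gene means in CFs, 7.27, where a further fall could go unseen. Ace read 10.55 on each of the 3 DMSO arrays, 10.98, 10.96 and 10.95 with TGFβ1, and 9.87, 9.91 and 8.34 with SB. The SB arrays lay lowest and the TGFβ1 arrays highest, without overlap. Ace had the same value to 3 decimals on all 3 DMSO arrays, as did 286 of 35556 probe sets in that group, 355 with TGFβ1 and 324 with SB, and none in any MEF group. The cause of these identical values was not tested. With no spread in DMSO, the standard errors and p-values of Ace in CFs may understate the spread between cultures. The SB difference of Ace was -1.18 (standard error 0.36, adjusted p = 0.488), and without replicate 3 of the SB group it was -0.66 (standard error 0.03, adjusted p = 0.000132) and was called, alone among the 9, where 1.89% of all genes were called.

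In other CF genes the same SB culture stood apart. Edn1 read 12.49, 12.38 and 12.38 with DMSO, 11.94, 11.95 and 11.89 with TGFβ1, and 12.52, 12.49 and 9.78 with SB. Npr3 read 10.56, 10.34 and 10.43 with DMSO, 9.85, 9.69 and 9.89 with TGFβ1, and 10.16, 10.25 and 7.92 with SB. In both genes and in Agt, where SB read 10.43, 10.53 and 9.13, replicate 3 lay far below the other SB arrays. Its endothelial and cardiomyocyte means lay below them too, and its fibroblast mean above. The mean of the delivered factors was also lower in replicate 3, at 9.55 against 9.81 and 9.83 in replicates 1 and 2. Its means of adipocyte and leukocyte genes lay above the other SB arrays, and that of pericyte and smooth muscle genes below. SB gave -0.82 for Edn1, -1.00 for Npr3 and -0.68 for Agt with all arrays, and 0.09, -0.24 and -0.23 without replicate 3. None of these differences was called, and the part of any of these cell types or of the delivered factors was not tested.

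TGFβ1 lowered both guanylate cyclase subunits in CFs, giving 2 of 9 called, where 5.32% of all genes were called (3.11% higher and 2.2% lower). Gucy1b1 read 8.72, 8.25 and 8.51 with DMSO, 7.68, 7.56 and 7.45 with TGFβ1, and 8.87, 8.85 and 9.27 with SB. Gucy1a1 read 7.45, 7.42 and 7.43 with DMSO, 6.55, 6.73 and 6.71 with TGFβ1, and 7.51, 7.56 and 8.003 with SB. The 3 media did not overlap for either gene, with TGFβ1 lowest and SB highest. The TGFβ1 differences were -0.93 for Gucy1b1 (standard error 0.15, adjusted p = 0.00777) and -0.77 for Gucy1a1 (standard error 0.12, adjusted p = 0.00767), and the SB differences were 0.51 (adjusted p = 0.411) and 0.26 (adjusted p = 0.876). Replicate 3 was the highest SB array for both genes. Without it the SB differences in limma were 0.37 for Gucy1b1 and 0.10 for Gucy1a1, neither called. Gucy1a1 was dim in CFs too, with a mean of 7.26 over the arrays. The cardiomyocyte mean was 9.80 to 9.84 with DMSO and 9.19 to 9.29 with TGFβ1 in CFs, where 2 of the 7 genes were called lower, and its part in these results was not tested.

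When SB replicate 3 was left out of the CF fit, 5 of 9 genes were called with TGFβ1, where 10.8% of all genes were called. Beside the cyclase subunits, Ace was then called higher with 0.41 (adjusted p = 4.84e-05), and Edn1 and Npr3 lower with -0.49 (adjusted p = 9.94e-05) and -0.63 (adjusted p = 0.000463). The TGFβ1 and DMSO arrays are the same in both fits, and with all arrays these 3 differences had standard errors of 0.36, 0.64 and 0.54. The adjusted p of Ace is limited by its identical DMSO values, as given above. Adm had -0.31 with TGFβ1 and 0.34 with SB in CFs, neither called with all arrays. Without SB replicate 3 its SB difference was 0.19, not called either. The endothelial mean was 10.70 to 10.75 with DMSO and 10.02 to 10.05 with TGFβ1, and its part in these results was not tested.

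**Figure D4:**
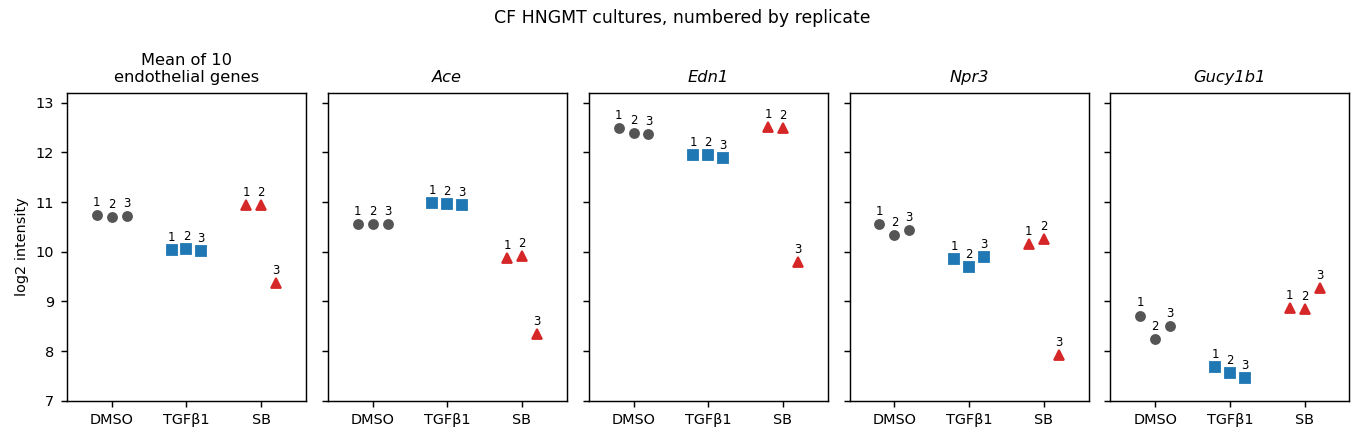
Log2 intensity (vertical axis) of the mean of 10 endothelial genes and of Ace, Edn1, Npr3 and Gucy1b1 in the 9 CF cultures, with points numbered by replicate (grey circles DMSO, blue squares TGFβ1, red triangles SB). SB replicate 3 lies below the other SB cultures in the first 4 panels, at 9.37 for the endothelial mean, and above them for Gucy1b1.

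The TGFβ1 effect was compared between CFs and MEFs with HNGMT, at the same dose. It differed for 3 of 9 genes, where 4.38% of all genes were called (2.68% higher and 1.7% lower), and all 3 were higher in CFs. Without CF HNGMT+SB replicate 3 the same 3 were called, where 5.16% of all genes were called. Ace had 0.41 in CFs and -2.05 in MEFs, a difference of 2.46 (standard error 0.33, adjusted p = 1.3e-05). The difference was 3.70 for Agtr2 (standard error 0.15, adjusted p = 1.37e-13) and 0.70 for Agtr1a (standard error 0.09, adjusted p = 3.44e-06), with the CF levels of both near the bottom of the scale as given above. For Gucy1b1 the difference was -0.28 (standard error 0.16, adjusted p = 0.287). SB doses differed between the cell types, and its effects were not compared.

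Of 58 further genes of these pathways, 52 had a probe set. With TGFβ1 in 0TF MEFs, 2 were called higher and 7 lower, where 10.4% of all genes were called. Mme, the peptidase neprilysin, and Anpep, an aminopeptidase that trims angiotensins, fell, with log2 differences of -4.66 and -2.91. Ramp2, the partner of the adrenomedullin receptor, had -2.24, Plcb1, a phospholipase C, -1.39, Ackr3, a scavenger receptor for adrenomedullin, -0.87, and Rgs4, a brake on G protein signalling, -0.77. Prkg2, a cyclic GMP-dependent kinase, rose by 0.90 and Pde1b, a cyclic nucleotide phosphodiesterase, by 0.59.
With TGFβ1 and HNGMT, 2 were called higher and 6 lower, where 5.77% of all genes were called. Calcrl, the receptor that Ramp2 joins, had -1.44, Rgs2, a brake on Gq signalling, -2.02, Anpep -0.85, Mme -0.70, Pde9a, a cyclic GMP phosphodiesterase, -0.64 and Plcb1 -0.59. Nppb, the brain natriuretic peptide, rose by 1.32 and Pde2a by 0.62. The TGFβ1 effect on Mme was weaker with HNGMT by 3.96 (adjusted p = 1.31e-13), on Anpep by 2.06 (adjusted p = 1.95e-10) and on Ramp2 by 1.91 (adjusted p = 7.05e-08), and that on Calcrl went from 0.38 in 0TF, not called, to -1.44, a difference of -1.82 (adjusted p = 3.45e-09). In this test of the difference 7 of the 52 were called higher and 3 lower, where 7.45% of all genes were called.

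With SB, 2 of the 52 were called higher and 6 lower in 0TF, and 2 higher and 1 lower with HNGMT. Of all genes, 2.4% and 0.823% were called in these 2 comparisons. In 0TF, Ramp2 rose by 0.96 and Enpep, the aminopeptidase that acts on angiotensin II, by 0.61, whereas Ednrb, the type B endothelin receptor, had -1.21, Rgs4 -0.85, Ackr3 -0.72, Rgs2 -0.61, Prkg1, the main cyclic GMP-dependent kinase of smooth muscle, -0.60, and Pde9a -0.60. With HNGMT, Ramp2 rose by 0.94 and Anpep by 0.71, and Rgs4 had -0.93. The SB effects on Pde9a, Ednrb, Ackr3 and Prkg1 were higher with HNGMT by 1.01, 0.99, 0.65 and 0.61. These 4 of the 52 were the only ones called in that test, where 1.96% of all genes were called.
HNGMT against 0TF in DMSO gave 5 higher and 9 lower, where 9.08% of all genes were called. Nppa, atrial natriuretic peptide, rose by 5.81, Nppb by 3.24 and Pde9a by 1.72, while Ramp2 had -2.01, Anpep -1.77, Plcb1 -1.49, Ackr3 -0.93 and Pde3a, a phosphodiesterase inhibited by cyclic GMP, -0.86. With SB 8 were higher and 6 lower, and with TGFβ1 9 were higher and 5 lower, where 9.85% and 10.3% of all genes were called. Nppa rose by 6.09 and 6.22 and Nppb by 3.77 and 4.56 in the same order. Mme had 2.81 and Calcrl -2.22 with TGFβ1.

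In CFs, TGFβ1 gave 3 higher and 2 lower of the 52, and 6 higher and 13 lower without SB replicate 3, where 5.32% and 10.8% of all genes were called. Nppb rose by 1.29 (adjusted p = 0.00639), Rgs2 by 0.59 and Ece2, an endothelin-converting enzyme, by 0.69, and Enpep had -0.73 and Prkg1 -0.61. Without that array Ramp2, with -1.51, Npr1, a natriuretic peptide receptor, with -1.47, Pde3a with -1.10, Calcrl with -1.07 and Ednrb with -1.05 were among those that fell.
SB gave 0 of the 52 called in CFs in limma, where 0.241% of all genes were called. Before adjustment the p was under 0.05 for 9 of the 52, 2 of them higher and 7 lower. All genes were not counted at that looser cut-off, so this count has no background. Without SB replicate 3, 4 were called higher and 3 lower, where 1.89% of all genes were called. Ednrb then rose by 0.99, Pde2a by 0.77, Ramp2 by 0.66 and Npr1 by 0.36, while Nppb had -0.44, Ackr3 -0.37 and Pde1a -0.36. The TGFβ1 effect on Rgs2 was higher in CFs than in MEFs by 2.61 (adjusted p = 4.15e-09). In this test 4 of the 52 were called higher and 5 lower, and 4 and 6 without CF HNGMT+SB replicate 3. Of all genes, 4.38% were called with all arrays and 5.16% without that array.

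**Figure D5:**
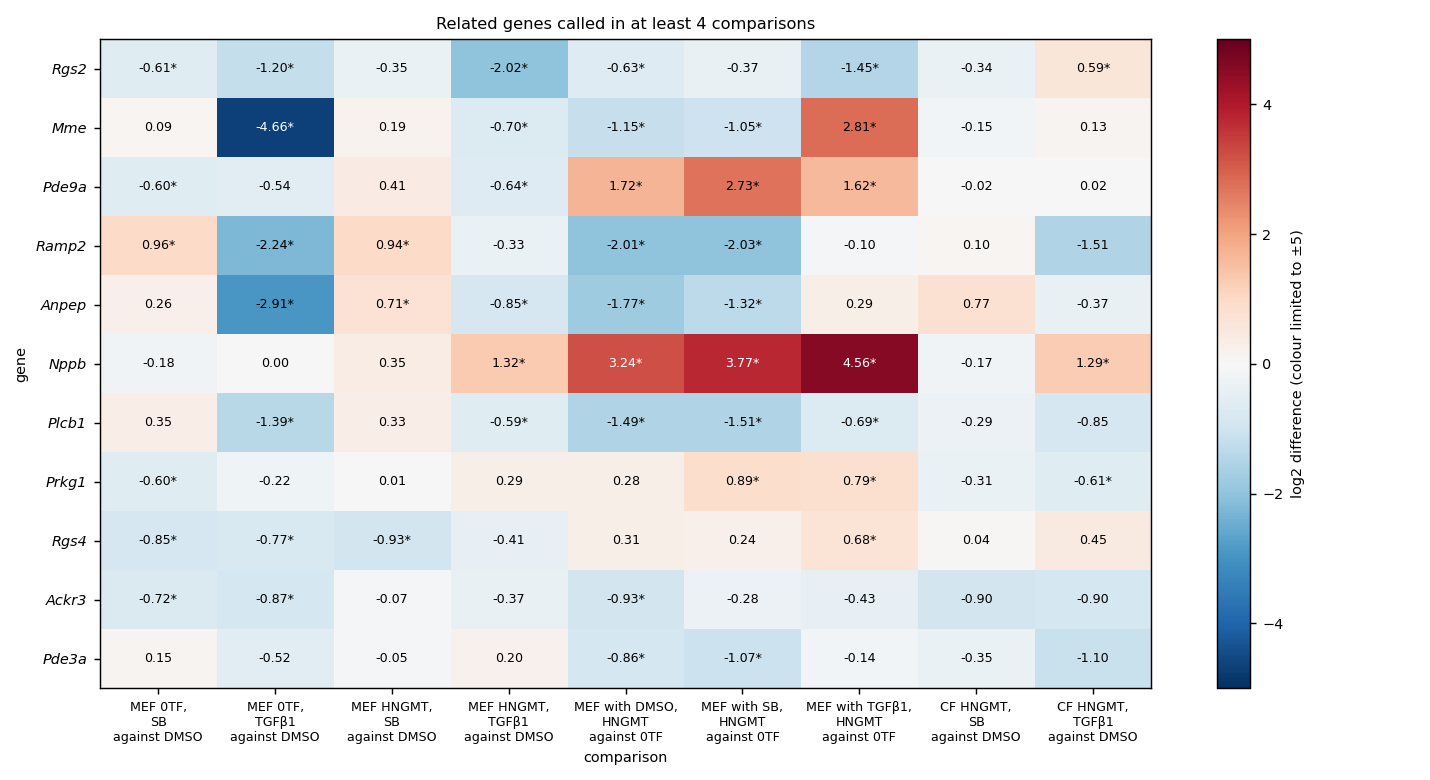
Log2 differences (colour and printed numbers) of the further pathway genes called in at least 4 of the 12 comparisons, in the 9 comparisons between 2 groups, with asterisks for called differences. Mme has -4.66 with TGFβ1 in 0TF MEFs, and Nppb is higher with HNGMT in all 3 media.

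For each gene, the genes with the most similar profile over the 18 MEF arrays were sought among 5164 genes whose group means spanned at least 1.5-fold. These correlations describe arrays that fall into the same 6 groups. Agtr2 was closest to Itm2a and Septin6 (Pearson r = 0.994 for both) and Runx1t1 (r = 0.987), and Agtr1a to Scara3 (r = 0.993), Osr2 (r = 0.989) and Kctd12 (r = 0.988). Ace was closest to Mki67, the Ki-67 antigen of cycling cells (r = 0.985), Cenpf, a kinetochore protein (r = 0.984), and Chaf1b, a chromatin assembly factor (r = 0.982). Agt was closest to Reep6 (r = 0.979), Gnai1 (r = 0.964) and Pcolce2 (r = 0.961), Edn1 to Pakap and Ehd4 (r = 0.989 for both) and Ide (r = 0.985), and Npr3 to Pag1 (r = 0.980), Shfl and Hmcn1 (r = 0.973 for both). Adm was closest to Kitl (r = 0.986), Tgfbr3 (r = 0.985) and Plpp3 (r = 0.981). Gucy1b1 was closest to Pygm, muscle glycogen phosphorylase (r = 0.956), Spry4 (r = 0.951) and Gnb3 (r = 0.949), and Gucy1a1 to Kctd12b (r = 0.973), Ndst3 (r = 0.966) and Add3 (r = 0.961), so the nearest genes of the 2 subunits were not shared.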

How the data were processed

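Affymetrix Mouse Gene 1.0 ST arrays, 1 per culture, measured total RNA of 27 mouse cultures. The log2 intensities were made by the authors and used as deposited. PartekGS and the Affymetrix Microarray Suite 5.0 are the software named in the methods, and MAS5 is named in the labels, but the summarization and normalization settings are not given in the sources used here. Of 35556 probe sets, 21789 carry 1 gene symbol, 1621 several and 12146 none, and 999 of the 19938 genes had several probe sets, of which the brightest was used. No gene of the list had more than 1. Positions and promoters are from RefSeq GRCm38.p6.

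Groups were fitted in limma 3.58.1 (lmFit, eBayes) under R 4.3.3, with 18 MEF arrays (12 residual degrees of freedom), 9 CF arrays (6) and all 27 (18) for the contrast between cell types. There were 12 comparisons, with calls as stated above, at 1.5-fold for the differences between effects. Standard errors are those of the moderated fit. The code was tested on simulated data. Figures were drawn with matplotlib 3.10.9 under Python 3.11.15.

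The genes and pathway lists were chosen with earlier results of these data known. Pathway genes were named when called, up to 8 per comparison in order of p, and similar genes as the 3 with the highest Pearson r. No arrays were identical. The methods describe 12-well and the labels 6-well plates, and the protocol text of the CF labels describes MEFs.

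Alternatives varied the arrays fitted, a replicate block, the variance trend, array weights, a filter on dim genes (40th percentile), probe set averaging, quantile normalization, the fold threshold and each array in turn.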

Additional observations from a re-analysis of the deposited data

Results flagged for a closer look

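Groups of 3 arrays were too small for a search for outlying arrays. Results appear here because the effect of a medium differed between populations by a test of the difference itself in limma. Between HNGMT and 0TF MEFs, the response to SB differed for Agt (log2 difference -3.13), Npr3 (0.84), Agtr1a (0.69) and Edn1 (0.59). The TGFβ1 effect differed between the same populations for Agtr1a (1.88), Gucy1b1 (-1.12), Edn1 (-0.89) and Agtr2 (-0.77). Between CFs and MEFs with HNGMT, the TGFβ1 effect differed for Agtr2 (3.70), Ace (2.46) and Agtr1a (0.70), and Agtr1a and Agtr2 were dim on all CF arrays.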

How the results depend on the processing

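No called difference changed direction under the alternatives run. Edn1 with SB in CFs, not called, went from -0.82 to 0.09 without CF HNGMT+SB replicate 3. Of 327 values of called differences recomputed with all arrays, 324 kept their call, and the 3 that fell under the fold threshold were Gucy1b1 with TGFβ1 in HNGMT MEFs (-0.45 with array weights), the difference between SB effects for Edn1 (0.58 with quantile normalization) and the difference between cell types for Agtr1a (0.50 with array weights). Leaving out 1 array at a time kept 309 of 317. Without the fold threshold, the genes called rose from 1 to 9 with SB in 0TF, from 5 to 8 with TGFβ1 in 0TF, from 2 to 6 with SB and HNGMT, and from 4 to 8 for HNGMT against 0TF in SB. The calls over all 19938 genes then rose from 478 to 3306, 2074 to 9350, 164 to 1471 and 1964 to 8340 in that order. Leaving out 1 array gave 2 to 4 genes for the difference between SB effects, 4 to 6 for TGFβ1 with HNGMT, 0 to 1 for SB in CFs and 2 to 5 for TGFβ1 in CFs, where the 5 came without CF HNGMT+SB replicate 3, an alternative chosen after seeing the data. Over all genes these calls ran from 380 to 421, 1122 to 1194, 2 to 377 and 617 to 2147 in that order. In CFs, array weights gave 2 genes with SB (Gucy1b1 higher, Ace lower) and 6 with TGFβ1, only the groups compared gave 5 with TGFβ1, and leaving out dim genes gave 1, since Gucy1a1 was then not tested. Over all genes, array weights took the CF calls from 48 to 587 with SB and from 1060 to 2373 with TGFβ1. Fitting only the groups compared gave 2100 calls with TGFβ1 over all genes, and leaving out dim genes gave 1078. Estimation of the array weights did not reach its tolerance in any of the 3 fits. The replicate block changed no count of called genes (1, 5, 2, 5, 6, 4, 5, 4, 4, 0, 2 and 3 over the 12 comparisons), and over all genes it took the calls with SB in CFs from 48 to 15. The numbers were not taken as pairs, since 7 of 18 MEF arrays and 5 of 9 CF arrays correlated best with an array of their own number. With 3 arrays a group the precision is limited by their number, and dim signals, such as Agtr1a and Agtr2 in CFs, allow no statement about lower levels.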
